A study of Caenorhabditis elegans with 12 samples.

Results

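The genes described here are 10 collagen genes of the nematode Caenorhabditis elegans: sqt-1, sqt-2, sqt-3, rol-6, rol-8, bli-1, bli-2, dpy-13, dpy-17 and col-17. They were taken by name from 20222 genes listed in each library, and 9 of the 10 passed the filter on low values that 13650 genes passed. They were chosen by the strain means of TPM in these same libraries: several had been higher in spo-11 mutants and lower in htp-3 or dsb-2 mutants than in the wild type. Their levels are therefore given as a description, with no test, for each of the contrasts among these strains.

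The levels came from polyadenylated RNA of whole animals on day 1 of adulthood, kept at 20 °C on E. coli OP50 and picked beforehand as L4 larvae. There were 4 strains: N2, the laboratory wild type, AV477 carrying dsb-2(me96), AV157 carrying spo-11(me44) and TY4986 carrying htp-3(y428). Each strain gave 3 libraries, described by the submitters as biological replicates, and each mutation was present in 1 strain, so a mutation and the rest of its strain's background cannot be told apart. DSB-2 promotes and SPO-11 makes the DNA double-strand breaks that start meiotic recombination, and HTP-3 is a protein of the meiotic chromosome axis. In whole animals, fewer cells of a type and less RNA per cell cannot be told apart.

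The nematode cuticle is a collagen coat that the underlying epidermis, called the hypodermis, secretes anew at each moult. Its collagens are made as procollagens, hydroxylated and cleaved on their way out of the cell, and then cross-linked outside it. Mutant body shapes gave many of the genes their names: squat (sqt), roller (rol), blister (bli) and dumpy (dpy). Transcripts of many cuticle collagens rise and fall with each moult.

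The 12 libraries held 32422219 to 42527086 mapped reads, and levels are in TPM, which scales reads by exon length and then to a fixed total per library. The mutated genes dsb-2 and htp-3 were lower in their own strains (limma on log2(TPM + 1), change -1.61 ± 0.21 SE, adjusted p = 0.00149, and -2.82 ± 0.21, adjusted p = 4.69e-07; n = 3 libraries each). The spo-11 transcript was at 36.2 ± 2.18 TPM in its own strain and 33.3 ± 11.2 TPM in N2 (SD, n = 3), so its level does not check that label. The 10 collagens were low in these adults: 47 of their 120 values were under 1 TPM, and 2 were 0. Collagen genes are similar in sequence, and how reads shared between them were assigned is not given in the sources used here.

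By strain means, 6 of the 10 genes (sqt-1, sqt-2, rol-6, rol-8, dpy-13 and col-17) were higher in spo-11 and lower in both htp-3 and dsb-2 than in N2. The opposite pattern did not hold for the other 4: sqt-3, bli-1, bli-2 and dpy-17 had higher means in htp-3 as well as in spo-11. All 10 genes had their highest mean in spo-11. Of the 10, 7 had their lowest mean in dsb-2, and bli-1, bli-2 and dpy-17 had it in N2.

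**Figure D1:**
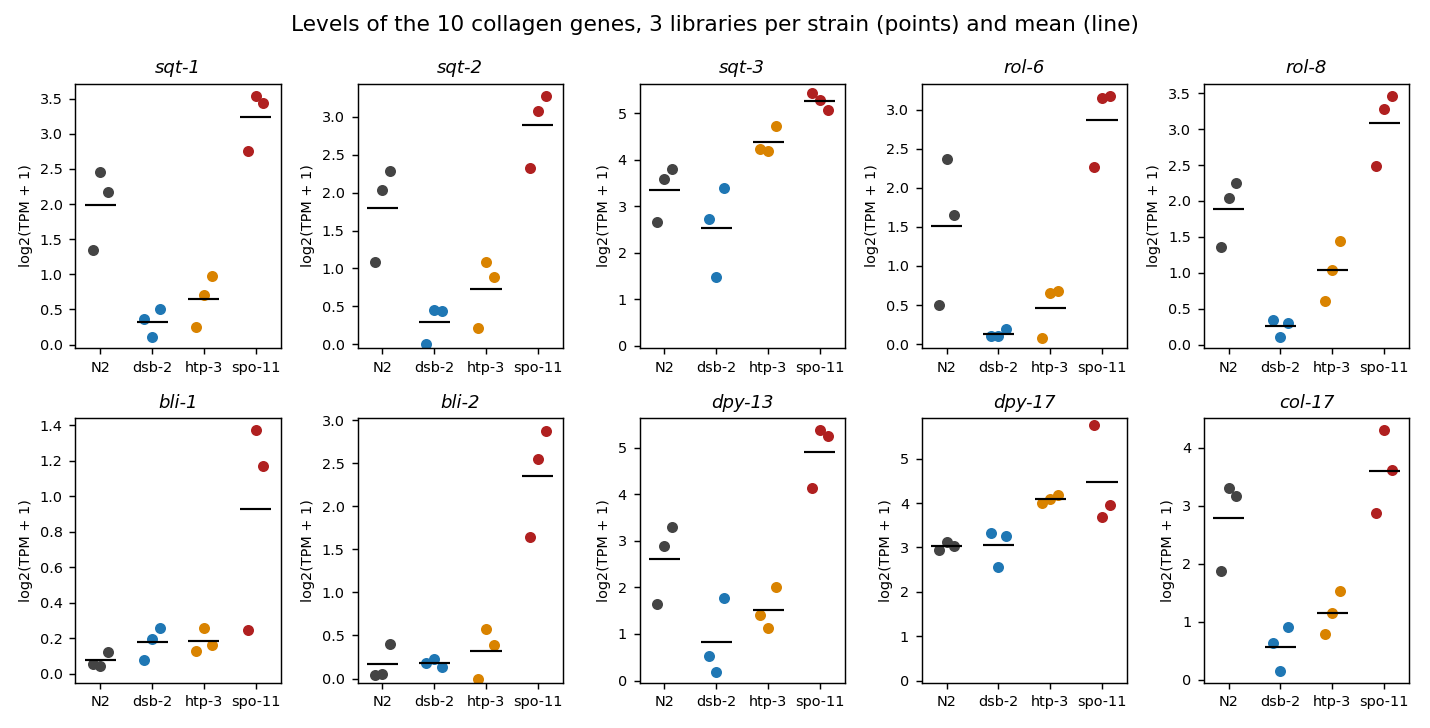
Levels of the 10 collagen genes in each library, as log2(TPM + 1) on the vertical axis, with the 4 strains along the horizontal axis. Points are libraries (n = 3 per strain) and lines are means. In the spo-11 strain the mean line is the highest of the 4 in each panel, and bli-1 stays near the bottom of the scale in the other 3 strains.

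The genes sqt-1, sqt-2, rol-6 and rol-8 encode cuticle collagens in which mutations make the animal roll about its long axis or shorten it. SQT-1 and ROL-6 are closely related, and sqt-1 and rol-6 alleles are known for their genetic interactions. All 4 genes lie on chromosome II. In the authors' coordinates on WBcel235, sqt-1 (WBGene00005016) spans 11336693 to 11337837, sqt-2 (WBGene00005017) 23328 to 24458, rol-6 (WBGene00004397) 8733050 to 8734314 and rol-8 (WBGene00004398) 7544069 to 7545335.

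The sqt-1 level was 1.53, 4.49 and 3.48 TPM in N2 replicates 1, 2 and 3, 0.293, 0.0814 and 0.415 TPM in dsb-2, 0.191, 0.636 and 0.966 TPM in htp-3, and 5.74, 10.6 and 9.78 TPM in spo-11. Each spo-11 library was above each N2 library, and each htp-3 and dsb-2 library was below them, while htp-3 and dsb-2 overlapped. Against the N2 mean of 3.17 ± 1.51 TPM (SD, n = 3), the mean was 2.75-fold higher in spo-11, 5.30-fold lower in htp-3 and 12.05-fold lower in dsb-2. The low values are thinly counted: 7, 2 and 13 reads in dsb-2 and 6, 19 and 29 reads in htp-3.

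For sqt-2 the values were 1.12, 3.10 and 3.86 TPM in N2, 0, 0.372 and 0.357 TPM in dsb-2, 0.162, 1.12 and 0.847 TPM in htp-3, and 3.995, 7.41 and 8.67 TPM in spo-11. The order of the strains was that of sqt-1, and the spo-11 libraries again stood above those of N2, but htp-3 overlapped both N2 and dsb-2. The mean was 2.48-fold higher in spo-11, 3.79-fold lower in htp-3 and 11.1-fold lower in dsb-2 than in N2. No read fell on sqt-2 in dsb-2 replicate 1, where 3 reads would have been 0.128 TPM, and 9 and 11 reads fell in replicates 2 and 3.

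The rol-6 level was 0.412, 4.18 and 2.14 TPM in N2, 0.0750, 0.0730 and 0.143 TPM in dsb-2, 0.0572, 0.571 and 0.598 TPM in htp-3, and 3.80, 7.84 and 8.04 TPM in spo-11. N2 spread widely, from a value below the 2 higher htp-3 libraries to a value above the lowest spo-11 library, so that only the dsb-2 libraries lay clear of N2. The mean ratios to N2 were 2.92-fold higher in spo-11, 5.50-fold lower in htp-3 and 23.1-fold lower in dsb-2. Without N2 replicate 2 they were 5.14-fold higher, 3.13-fold lower and 13.2-fold lower, and without N2 replicate 1 the dsb-2 mean was 32.6-fold lower. The dsb-2 mean rested on 2, 2 and 5 reads.

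For rol-8 the values were 1.56, 3.13 and 3.73 TPM in N2, 0.270, 0.0751 and 0.236 TPM in dsb-2, 0.530, 1.05 and 1.72 TPM in htp-3, and 4.61, 8.75 and 10.05 TPM in spo-11. Strains stood apart at each step of the order except between htp-3 and N2, where the highest htp-3 library exceeded the lowest N2 library. The mean was 2.78-fold higher in spo-11, 2.55-fold lower in htp-3 and 14.5-fold lower in dsb-2, where it rested on 7, 2 and 8 reads.

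The other 2 genes with this order of means were dpy-13, in which mutations give short, stout animals, and col-17, a numbered cuticle collagen. On chromosome IV, dpy-13 (WBGene00001074) spans 4235614 to 4236710, and on chromosome II col-17 (WBGene00000606) spans 4866436 to 4867576. The col-17 gene is known as a larval collagen gene that the transcription factor LIN-29 represses at the switch to the adult cuticle.

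The dpy-13 level was 2.13, 6.37 and 8.90 TPM in N2, 0.442, 0.129 and 2.39 TPM in dsb-2, 1.65, 1.202 and 3.02 TPM in htp-3, and 16.5, 40.4 and 36.9 TPM in spo-11. The spo-11 libraries lay far above all others, and the other 3 strains overlapped in sequence along the order. The mean was 5.39-fold higher in spo-11, 2.96-fold lower in htp-3 and 5.87-fold lower in dsb-2, where leaving out replicate 3 gave 20.3-fold lower. The dsb-2 values rested on 10, 3 and 71 reads in replicates 1, 2 and 3.

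For col-17 the values were 2.66, 8.93 and 7.93 TPM in N2, 0.559, 0.116 and 0.883 TPM in dsb-2, 0.730, 1.21 and 1.88 TPM in htp-3, and 6.33, 18.6 and 11.2 TPM in spo-11. Both htp-3 and dsb-2 lay below N2 in each library, whereas spo-11 and N2 overlapped. The mean was 12.5-fold lower in dsb-2 (19.3-fold without dsb-2 replicate 3), 5.11-fold lower in htp-3 and 1.85-fold higher in spo-11. The dsb-2 values rested on 14, 3 and 29 reads in replicates 1, 2 and 3. On the log2(TPM + 1) scale the difference between spo-11 and N2 was 0.81 for col-17, close to the median of 0.80 over the 13650 genes tested. With libraries scaled by the median of ratios, which moves that median to 0.16, it was 0.09.

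**Figure D2:**
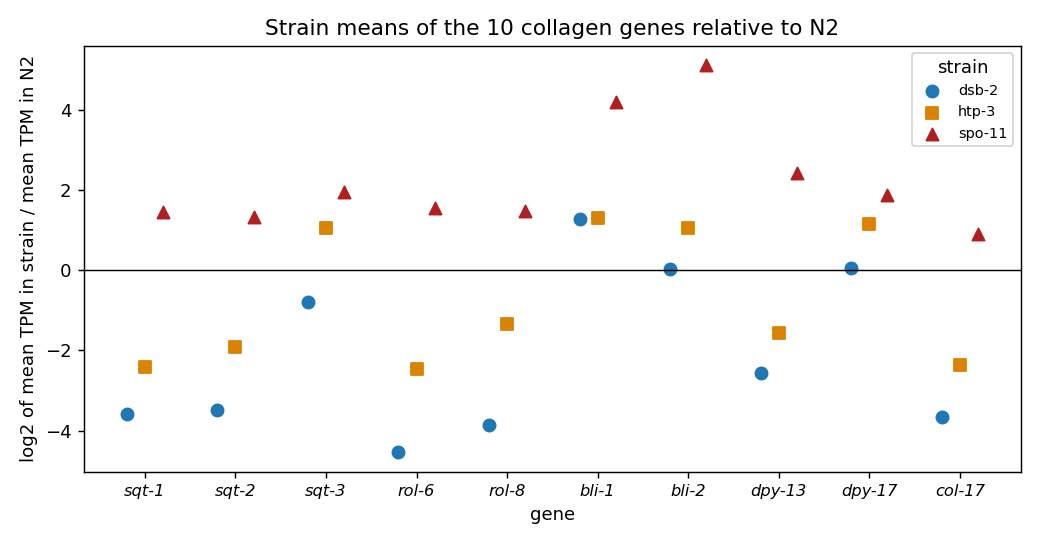
Ratio of each mutant strain's mean TPM to the N2 mean on a log2 scale (vertical axis) for the 10 collagen genes (horizontal axis). Each symbol is 1 strain's mean of 3 libraries, without error bars. The spo-11 triangles are above 0 for all 10 genes, and the htp-3 and dsb-2 symbols are both below 0 for 6 of them.

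SQT-3 and DPY-17 are linked in collagen biology: DPY-17 is needed for SQT-3 to be secreted, and the astacin protease DPY-31 acts on SQT-3. The sqt-3 gene (WBGene00005018) spans 12352994 to 12354314 on chromosome V, and dpy-17 (WBGene00001076) 5107330 to 5108497 on chromosome III. They were the only members at 1 TPM or more in all 12 libraries.

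The sqt-3 level was 5.35, 11.04 and 12.8 TPM in N2, 5.65, 1.78 and 9.42 TPM in dsb-2, 17.9, 17.3 and 25.5 TPM in htp-3, and 42.3, 38.1 and 32.7 TPM in spo-11. The htp-3 libraries stood above those of N2 and below those of spo-11, and dsb-2 overlapped N2. The mean was 3.87-fold higher in spo-11 and 2.08-fold higher in htp-3 than in N2, and 1.73-fold lower in dsb-2 (2.62-fold without dsb-2 replicate 3).

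For dpy-17 the values were 6.65, 7.76 and 7.23 TPM in N2, 9.04, 4.87 and 8.63 TPM in dsb-2, 15.03, 15.9 and 17.2 TPM in htp-3, and 52.8, 11.9 and 14.5 TPM in spo-11. Replicate 1 of spo-11 stood far above the other 2, which lay below the htp-3 libraries. The spo-11 mean was 3.66-fold the N2 mean with that library and 1.83-fold without it. The htp-3 mean was 2.23-fold higher than N2, and the dsb-2 mean was 1.04 times that of N2. Between spo-11 and htp-3 the order of means depended on the same library, with a ratio of 1.64 with it and 0.821 without it.

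BLI-1 and BLI-2 are collagens of the struts that join the layers of the adult cuticle, and their loss gives fluid-filled blisters. Both genes lie on chromosome II, bli-1 (WBGene00000251) at 10708765 to 10712156 and bli-2 (WBGene00000252) at 5651394 to 5652449. Outside spo-11 both were close to the limit of counting.

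The bli-1 level was 0.0399, 0.0335 and 0.0915 TPM in N2 (4, 3 and 10 reads), 0.0545, 0.146 and 0.198 TPM in dsb-2, 0.0934, 0.196 and 0.119 TPM in htp-3, and 0.189, 1.59 and 1.25 TPM in spo-11. With 2 libraries at 1 TPM or more it was the member that did not pass the filter. Replicates 2 and 3 of spo-11 stood alone, since replicate 1 lay among the dsb-2 and htp-3 values. The spo-11 mean was 18.4-fold higher than that of N2.

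For bli-2 the values were 0.0317, 0.0355 and 0.320 TPM in N2 (1, 1 and 11 reads), 0.130, 0.168 and 0.0991 TPM in dsb-2, 0, 0.485 and 0.310 TPM in htp-3, and 2.12, 4.83 and 6.34 TPM in spo-11. All 3 spo-11 libraries lay above the 9 others, which overlapped. The spo-11 mean was 34.3-fold the N2 mean, a ratio set largely by N2 replicate 3, without which it was 131.8-fold. No read fell on bli-2 in htp-3 replicate 1, where 3 reads would have been 0.0989 TPM.

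Counted by libraries that do not overlap, 8 of the 10 genes had every spo-11 library above every N2 library, which 56.9% of the 13650 genes tested also had. The exceptions were rol-6 and col-17, and no member was lower without overlap (26.7% of all genes). In dsb-2, 5 members were lower without overlap (sqt-1, sqt-2, rol-6, rol-8 and col-17) against 7.57% of all genes, and 0 were higher against 8.64%. In htp-3, 3 members were higher (sqt-3, bli-1 and dpy-17; 43.3% of all genes) and 2 lower (sqt-1 and col-17; 20.2%). Directly between spo-11 and htp-3, 8 members were higher in spo-11 (43.7% of all genes) and 0 lower (10.9%), the exceptions being bli-1 and dpy-17. These contrasts helped choose the members, and the first 3 share the N2 libraries, so nothing is read from these shares.

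On the log2(TPM + 1) scale the median difference from N2 over the 10 genes was 1.30 in spo-11, against 0.80 over all genes tested. In htp-3 it was -0.94 against 0.27, and in dsb-2 -1.44 against 0.02. The ratio of the spo-11 mean to the htp-3 mean ran from 1.64 for dpy-17 to 16.7 for bli-2 (28.5 without htp-3 replicate 2), and it was 7.09 for rol-8 and 16.1 for rol-6.

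Genes with the opposite pattern without any overlap were few. Every spo-11 library above and every htp-3 library below N2 was found for 66 of 13650 genes (0.484%), of which sqt-1 was the only member. Adding dsb-2 below N2 left 15 genes (0.11%), again with sqt-1 the only member. The lon-3 gene, a cuticle collagen that affects body length, was another of the 15. Spo-11 above and dsb-2 below N2 was found for 376 genes (2.75%), among them sqt-1, sqt-2 and rol-8. In contrast, 5539 genes (40.6%) were above N2 in both spo-11 and htp-3, as sqt-3 and dpy-17 were.

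The 6 genes were grouped by their order of strain means, so high correlations across strains restate that grouping. Over the 12 libraries, their 15 pairs had Pearson correlations of log2(TPM + 1) between 0.94 and 0.98. After the strain means were subtracted, which leaves the differences among replicates, the same pairs gave 0.66 to 0.95 with a median of 0.84. In N2 and in spo-11, replicate 1 was the lowest of the 3 libraries for each of these genes. The libraries share depth and composition, and the correlations are a description of 12 libraries in 4 groups.

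The other members moved differently. Of bli-1 and bli-2, the correlation was 0.92 over all libraries and 0.83 with strain means subtracted. The values for sqt-3 and dpy-17 were 0.79 and 0.42. With the other 9 members dpy-17 had a median correlation of 0.32, and of -0.34 once strain means were subtracted, with its lowest value, -0.92, against bli-1. Among the spo-11 libraries, replicate 1 was the highest for dpy-17 and sqt-3 and the lowest for the other 8 members.

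**Figure D3:**
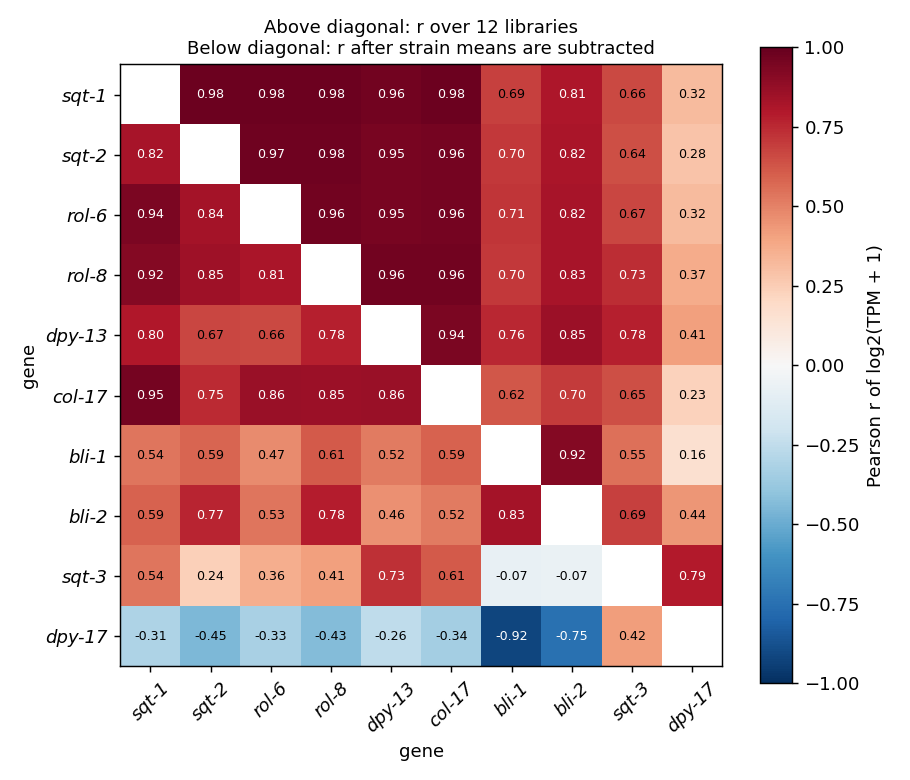
Pearson correlation of log2(TPM + 1) for each pair of the 10 collagen genes, over 12 libraries above the diagonal and after strain means are subtracted below it. The colour scale runs from -1 to 1. The 6 genes at the upper left hold the highest values, from 0.94 to 0.98 above the diagonal, and below it dpy-17 is negative with each member except sqt-3 (0.42).

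Among 8989 other genes with a mean of at least 5 TPM, the 8 whose levels most resembled the mean standardised profile of the members over 12 libraries included 6 genes with dpy or col names. They were dpy-5 (r = 0.98), col-73 (0.97), dpy-4 (0.97), col-125 (0.97), col-107 (0.96) and col-168 (0.95), with R12E2.15 (0.96) and F41F3.3 (0.95). The median over the 8989 genes was 0.03. After strain means were subtracted, dpy-5 (0.89), dpy-4 (0.86) and col-73 (0.85) were again among the 8 highest. The others were pcp-1 (0.88), ifd-1 (0.86), F01D5.5, coq-3 and cut-2 (0.82 each), and the median over all was 0.15.

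The 13 other named body-shape collagens that were tested included genes that rose in spo-11 and in htp-3, and none passed the test in dsb-2. In spo-11, 11 rose and 0 fell, with a median change of 1.06 against 0.80 over all genes, where 55.6% of genes were called higher and 22.1% lower (limma, adjusted p under 0.05). Of the 11, dpy-8, lon-3 and rol-1 passed the filter on low values only with the spo-11 libraries counted, which favoured rises there. In htp-3, 3 rose and 1 fell, with a median of 0.17 against 0.27, where 39.5% of genes were called higher and 19.7% lower. Of the 3, dpy-14 (limma adjusted p = 0.0304) did not pass under several alternatives. Among these were median-of-ratios scaling (adjusted p = 0.071), no filter on low values (0.0767) and leaving out N2 replicate 1 (0.125). In dsb-2, 0 of 13 passed by limma, nor by limma-voom on rebuilt reads, and 5 had an unadjusted p under 0.05 (dpy-4, dpy-5, dpy-7, dpy-9 and lon-3), with a median of -0.44 against 0.02, where 0.19% of all genes were called higher and 0.0733% lower. Under median-of-ratios scaling the counts were 7 higher and 1 lower in spo-11, and 2 higher and 3 lower in htp-3, where the list's median turned to -0.03. Of the 13650 genes tested, that scaling called 6033 higher and 5449 lower in spo-11, and 4213 higher and 4743 lower in htp-3. These are the background for the counts of each list given under that scaling.

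Of this group, dpy-5 and dpy-4, in which mutations also give dumpy animals, were the genes named above for their likeness to the mean profile of all 10 members. That ranking left out genes with a mean under 5 TPM, lon-3 among them. The dpy-5 mean was 5.26 ± 3.14 TPM in N2, 1.09 ± 1.60 in dsb-2, 1.97 ± 1.38 in htp-3 and 31.4 ± 13.6 in spo-11 (SD, n = 3). It rose in spo-11 against N2 by 2.43 ± 0.53 (SE, limma adjusted p = 0.000616), while its values of -1.001 in htp-3 (adjusted p = 0.113) and -1.67 in dsb-2 (adjusted p = 0.429) did not pass. The dpy-4 mean was 4.99 ± 3.14 TPM in N2, 1.40 ± 1.72 in dsb-2, 1.91 ± 0.312 in htp-3 and 28.4 ± 12.96 in spo-11, a rise of 2.33 ± 0.48 in spo-11 (limma adjusted p = 0.000412).

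The lon-3 gene was called in opposite directions at levels of 0.939 ± 0.489 TPM in N2, 0.257 ± 0.146 in htp-3 and 1.93 ± 0.328 in spo-11 (SD, n = 3). Outside spo-11, lon-3 reached 1 TPM only in N2 replicate 2 (1.40 TPM), so it was tested because of its spo-11 levels. It rose by 0.62 ± 0.18 in spo-11 (limma adjusted p = 0.00567) and fell by 0.60 ± 0.18 in htp-3 (adjusted p = 0.0114). The rise did not pass under median-of-ratios scaling (0.16, adjusted p = 0.363), and the fall did not pass without N2 replicate 2 (adjusted p = 0.0654) or without htp-3 replicate 1 (adjusted p = 0.0585).

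Among other collagens of the group, bli-6 rose in both mutants, by 2.82 ± 0.45 in spo-11 (limma adjusted p = 3.78e-05) and by 2.31 ± 0.45 in htp-3 (adjusted p = 0.000692), from 2.9998 ± 2.07 TPM in N2 to 27.6 ± 13.4 and 18.9 ± 10.3 TPM. The gene ram-2, named for abnormal sensory rays of the male tail, rose by 3.72 ± 0.45 in spo-11 (limma adjusted p = 2.31e-06) and by 1.51 ± 0.45 in htp-3 (adjusted p = 0.0107). Its value in htp-3 without N2 replicate 1 was 0.93 (limma adjusted p = 0.064). For rol-1 the spo-11 rise was 3.49 ± 0.34 (limma adjusted p = 2.53e-07) and the htp-3 value 0.20 (adjusted p = 0.625). Outside spo-11, rol-1 reached 1 TPM only in dsb-2 replicate 3 (1.29 TPM). Between spo-11 and htp-3 directly, 7 of the 13 were higher in spo-11 and 0 lower, where 38.6% of all genes were called higher and 8.1% lower.

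**Figure D4:**
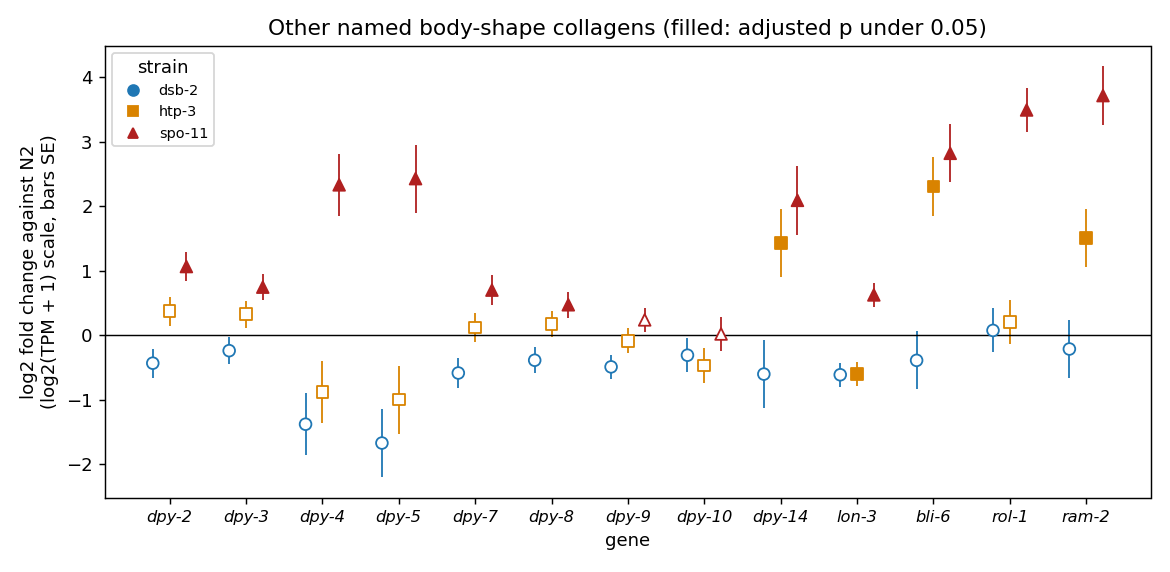
Log2 change against N2 on the log2(TPM + 1) scale (vertical axis; bars are SE from limma) of the 13 other named body-shape collagens (horizontal axis) in dsb-2, htp-3 and spo-11 (n = 3 libraries each). Filled symbols passed an adjusted p of 0.05. Of the genes, 11 have a filled spo-11 symbol above 0, and lon-3 is the gene with a filled htp-3 symbol below 0.

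Stage-linked genes gave the context of col-17. The adult collagen gene col-19, which LIN-29 activates, was at 744 ± 103 TPM in N2, 625 ± 86.4 in dsb-2, 3282 ± 817 in htp-3 and 1499.7 ± 155 in spo-11 (SD, n = 3). It rose by 2.12 ± 0.18 in htp-3 (limma adjusted p = 1.48e-06) and by 1.02 ± 0.18 in spo-11 (adjusted p = 0.000113; 0.18 and adjusted p = 0.446 under median-of-ratios scaling). It was thus lower in spo-11 than in htp-3, by -1.10 ± 0.18 (limma adjusted p = 0.000128), opposite in direction to the members' means. The lin-29 transcript rose in both, from 0.490 ± 0.128 TPM in N2 to 1.66 ± 0.375 in htp-3 (limma adjusted p = 0.00131) and 3.35 ± 0.650 in spo-11 (adjusted p = 1.45e-06). Outside these mutants, lin-29 reached 1 TPM only in dsb-2 replicate 2 (1.03 TPM). It was therefore tested because of its htp-3 and spo-11 levels, which favoured rises there.

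Of the 10 stage-linked col genes, 9 rose in spo-11, where 55.6% of all genes were called higher, and the list's median was 3.44 against 0.80. Of the 9, col-49 and col-63 passed the filter on low values only with the spo-11 libraries counted. In htp-3, 6 rose and 1 fell, where 39.5% and 19.7% of all genes did, with a median of 1.16 against 0.27. Under median-of-ratios scaling 8 rose in spo-11, and 4 rose and 1 fell in htp-3. The largest change in spo-11 was that of col-62, from 1.53 ± 1.35 to 105.8 ± 84.3 TPM (limma 5.27 ± 0.49, adjusted p = 1.5e-07), and it rose in htp-3 by 1.998 ± 0.49 (adjusted p = 0.00323). The gene that fell in htp-3 was col-41, by 0.97 ± 0.33 (limma adjusted p = 0.0218), from 2.05 ± 1.03 to 0.492 ± 0.135 TPM. That call was lost with no filter on low values (adjusted p = 0.0528), with a pseudocount of 5 (adjusted p = 0.0585), without N2 replicate 2 (adjusted p = 0.0843), without N2 replicate 3 (adjusted p = 0.0821) and without htp-3 replicate 1 (adjusted p = 0.0731).

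The list of genes that process and cross-link collagens, which act on all cuticle collagens or on some, had 16 tested genes. Of these, 10 rose and 2 fell in spo-11 (median 1.06, all genes 0.80), and 11 rose and 1 fell in htp-3 (median 0.87, all genes 0.27). Over all genes 55.6% were called higher and 22.1% lower in spo-11, and 39.5% and 19.7% in htp-3. The 10 of 16 higher in spo-11 were thus near the background. Of the 10, nas-36 passed the filter on low values only with the spo-11 libraries counted. Under median-of-ratios scaling the counts were 8 and 5 in spo-11 and 9 and 3 in htp-3. The SQT-3 protease gene dpy-31 rose from 6.49 ± 0.836 TPM in N2 to 21.9 ± 5.24 in htp-3 and 29.0 ± 8.28 in spo-11 (SD, n = 3; limma adjusted p = 0.000153 and 3.75e-06), the same direction as the means of sqt-3 itself. The peroxidase gene mlt-7, which acts in cross-linking, rose by 1.99 ± 0.24 in htp-3 (limma adjusted p = 1.97e-05) and 2.53 ± 0.24 in spo-11 (adjusted p = 1.6e-07). The disulphide isomerase gene pdi-1 fell in both, by 0.53 ± 0.15 (limma adjusted p = 0.00717) and 0.67 ± 0.15 (adjusted p = 0.000802).

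In the DBL-1 pathway, a TGF-beta type signal that sets body size through cuticle genes, 9 of 10 rose in spo-11 and 8 of 10 in htp-3 with 0 falling, or 6 higher and 1 lower in each under median-of-ratios scaling. Its median change was 1.23 in spo-11 and 1.04 in htp-3, against 0.80 and 0.27 over all genes, of which 55.6% and 39.5% were called higher. Its receptor-associated gene sma-10 rose by 2.63 ± 0.28 in spo-11 (limma adjusted p = 4.85e-07) and 1.66 ± 0.28 in htp-3 (adjusted p = 0.000223). Of 15 moulting and cuticle gene regulators, 10 rose and 0 fell in spo-11 (9 and 2 under median-of-ratios scaling), and 5 rose and 2 fell in htp-3. Of 7 heterochronic genes, which time larval stages, 5 rose and 1 fell in spo-11 (5 and 2 with that scaling), and 4 rose and 2 fell in htp-3. Of 9 tested genes for non-collagen cuticle and matrix proteins, 8 rose in spo-11 and 3 in htp-3, with 0 falling. Among the genes that rose, nhr-25, nhr-85, mlt-9 and dex-1 passed the filter on low values only with the spo-11 libraries counted. With neither the spo-11 nor the htp-3 libraries counted, noah-1, cut-4, lpr-3, let-653, sym-1, lin-29 and lin-46 would not have passed. The filter thus favoured rises of these genes in those strains. Against 0.80 in spo-11 and 0.27 in htp-3 over all genes, the median changes were 1.09 and 0.30 for the moulting regulators, 1.06 and 0.83 for the heterochronic genes and 1.52 and 0.46 for the matrix genes. With 55.6% of all genes called higher in spo-11 and 39.5% in htp-3, the 10 and 5 of 15 moulting regulators and the 3 of 9 matrix genes in htp-3 were near those shares. In dsb-2, 0 of the 80 tested genes on the 7 cuticle lists passed at an adjusted p under 0.05 by limma or limma-voom, and 10 had an unadjusted p under 0.05; with median-of-ratios scaling 1 stage-linked gene passed as lower.

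Transcripts that mark the hypodermis were measured beside the members. Of 7 tested hypodermis and seam markers, 5 rose and 1 fell in spo-11, and 3 rose and 1 fell in htp-3. Of the 5, wrt-10 passed the filter on low values only with the spo-11 or htp-3 libraries counted. The marker that fell was lin-26 in both, with changes of -0.76 in spo-11 (limma adjusted p = 0.00432) and -0.81 in htp-3 (adjusted p = 0.00505). Over all genes 55.6% were called higher and 22.1% lower in spo-11, and 39.5% and 19.7% in htp-3, so the htp-3 counts were near the background. In dsb-2, 0 passed by limma or limma-voom, and mup-4 and vab-10 had an unadjusted p under 0.05. Most of the summed level of the 12 markers found in N2 came from lin-26 (48.4 to 58.8 TPM), so the sum was also taken without it, a choice made after its values were seen. That choice left out the only marker called lower. By strain means, mup-4, vab-10 and elt-3 were the highest of the rest. Without lin-26 the lowest and highest sums were 12.9 and 21.6 TPM in the N2 libraries, 18.2 and 32.5 in those of dsb-2, 50.6 and 62.9 in those of htp-3 and 81.6 and 102.5 in those of spo-11. With lin-26 they were 64.1 and 80.4, 72.4 and 110.2, 80.2 and 91.7, and 116.9 and 132.3 TPM in the same order. The marker nhr-73 was at 0 in all 3 dsb-2 libraries, but it did not pass the filter and was only 0.083 to 0.38 TPM in N2.

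The 6 genes together had sums between 9.42 and 30.2 TPM in N2, between 0.847 and 4.43 in dsb-2, between 3.32 and 9.03 in htp-3 and between 40.99 and 93.6 in spo-11. Per 1 TPM of the hypodermal markers without lin-26, that sum lay between 0.728 and 1.44 in N2, between 0.0295 and 0.136 in dsb-2, between 0.0578 and 0.144 in htp-3 and between 0.422 and 1.15 in spo-11. On this scale spo-11 overlapped N2, with a lower mean (0.799 ± 0.363 against 1.19 ± 0.397, SD, n = 3), and both htp-3 and dsb-2 remained below N2 in each library. With lin-26 included, the ratios lay between 0.147 and 0.435 in N2, between 0.00948 and 0.0402 in dsb-2, between 0.0414 and 0.0997 in htp-3 and between 0.329 and 0.801 in spo-11, and the spo-11 mean was above that of N2. The order of the spo-11 and N2 means thus depended on whether lin-26 was counted. The part of hypodermal RNA in the members' levels was not tested.

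**Figure D5:**
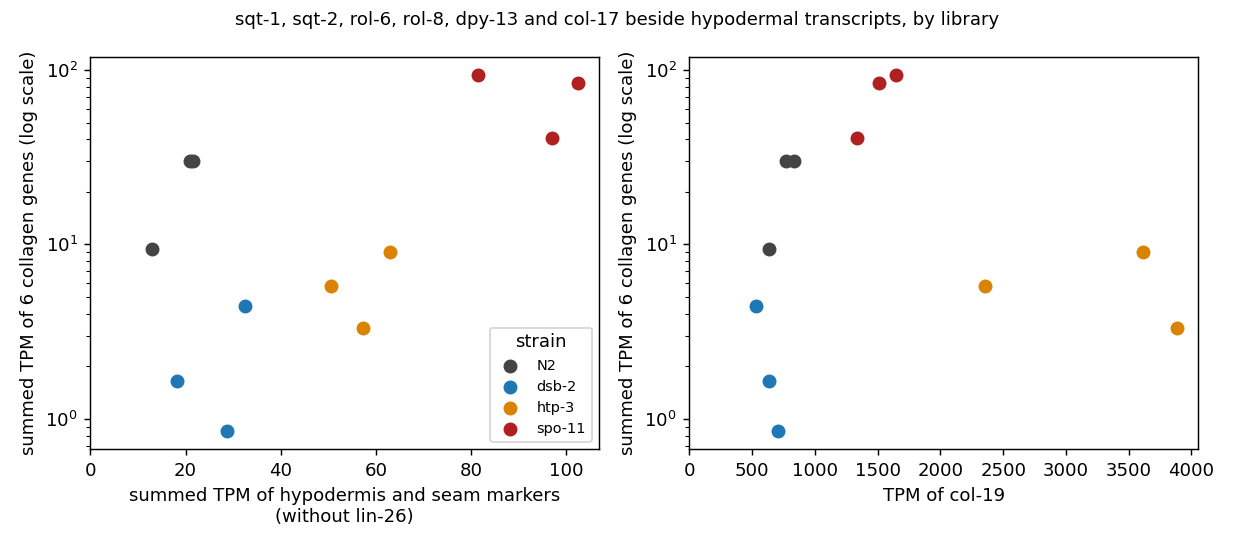
Summed TPM of sqt-1, sqt-2, rol-6, rol-8, dpy-13 and col-17 (vertical axes, log scale) against the summed TPM of hypodermis and seam markers without lin-26 (left) and the TPM of col-19 (right). Each point is 1 library, with 3 per strain. The htp-3 libraries lie at 50.6 to 62.9 TPM of markers, to the right of N2, and below it in the collagen sum.

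Markers of other tissues, and of embryos, were measured beside the members as well. For comparison, 55.6% of all genes were called higher and 22.1% lower in spo-11, and 39.5% and 19.7% in htp-3. All 12 germline and oocyte markers fell in spo-11 and in htp-3. Their sums lay between 6626 and 7031 TPM in N2, between 2396 and 2820 in spo-11 and between 2229 and 4817 in htp-3. In dsb-2, where 7 members had their lowest mean, the germline sums were above N2 in each library, between 7922 and 11381 TPM, with a median change of 0.39. There, 0 of the 12 passed by limma or limma-voom, and 4 had an unadjusted p under 0.05.

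Muscle markers rose in 9 of 10 genes in spo-11 and in 10 of 10 in htp-3, with mean sums of 3594 ± 365 TPM in N2, 3665 ± 404 in dsb-2, 7125 ± 1997 in htp-3 and 7906 ± 461 in spo-11 (SD, n = 3). Neuron markers rose in 9 and 7 of 10, with mean sums of 296 ± 40.5 TPM in N2, 339.8 ± 9.40 in dsb-2, 433 ± 28.4 in htp-3 and 803 ± 99.2 in spo-11. Of these, unc-31 and rgef-1 passed the filter on low values only with the spo-11 libraries counted, which favoured rises there. The muscle marker unc-22 passed only with the spo-11 or htp-3 libraries counted. Intestine markers rose in 4 of 10 in spo-11, under the 55.6% of all genes called higher there, and in 8 of 10 in htp-3. Their mean sums were 3079 ± 360.4 TPM in N2, 2979.6 ± 203 in dsb-2, 7322 ± 1573 in htp-3 and 6862 ± 952 in spo-11. None of the muscle, neuron or intestine markers fell in either strain. Under median-of-ratios scaling the intestine markers in spo-11 turned to 3 higher and 4 lower, and 1 neuron marker was lower there. Of the 13650 genes tested, 6033 were higher and 5449 lower in spo-11 under that scaling, so 4 of 10 lower was near the background. The intestine median in spo-11 was 0.40 against 0.80 over all genes, and -0.41 against 0.16 under median-of-ratios scaling. That scaling left 6 of 10 muscle markers higher in each strain and 5 of 10 intestine markers higher in htp-3. The htp-3 sums of TPM were above N2 in each library, as the spo-11 sums were.

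Of the sperm markers, 10 of 10 rose in spo-11, from between 3.51 and 24.7 TPM in N2 to between 456 and 854 TPM. In htp-3, 5 rose, where 39.5% of all genes were called higher. The markers spe-9, spe-26 and spe-38 reached 1 TPM in no library outside spo-11, so the filter favoured their rise there. Early embryo markers had sums between 1.78 and 2.29 TPM in N2, between 1.59 and 2.82 in dsb-2, between 4.96 and 7.28 in htp-3 and between 10.2 and 20.9 in spo-11. Of the 3 embryo markers that passed the filter, all 3 rose in both spo-11 and htp-3, while med-1 and hlh-27 were at 0 in every N2 library. Each of the 3 passed only with the spo-11 or htp-3 libraries counted, which favoured rises there. The part of these tissues in the members' levels was not tested.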

How the data were processed

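Polyadenylated RNA of whole animals was sequenced from 3 libraries in each of 4 strains. The TPM and RPKM values were deposited by the authors, per the file headers, and the RPKM and expression value columns held the same numbers in all 12 libraries. The submitters' processing notes name WBcel235 as the build. No source used here names the aligner, the counting method or its strandedness.

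Reads were rebuilt from the steps between low RPKM values. All 18042 genes detected in at least 4 libraries gave whole reads to within 0.05. The test was limma 3.58.1 (R 4.3.3) on log2(TPM + 1), with a variance trend. It used 13650 genes that reached 1 TPM in 3 or more libraries, in 1 fit of the 12 libraries by strain. A low gene could pass through the libraries of 1 strain alone, which favours rises in that strain. Benjamini-Hochberg adjustment covered all genes tested, with calls made below 0.05. The log2(TPM + 1) scale understates changes of low genes, so members are mainly given as ratios of mean TPM. Members at few reads carry counting error. The fit was also run on simulated data, from which nothing is read here about genes at few reads.

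The members, gene lists and tests were chosen with earlier results of these data known. List genes were named by the smallest p, up to 3 per direction, list and comparison, similar genes by the 8 highest correlations, and col-19, lin-29 and the mutated genes by name. Strains share replicate numbers. The deviations of same-numbered spo-11 and htp-3 libraries correlated at 0.12, 0.44 and 0.23, all above the limit of 0.1. By that limit the numbers pair these strains, from the data and not the design. The main fit nevertheless held no replicate block. The values given between spo-11 and htp-3 are therefore unpaired, and the block was run only as an alternative. In each comparison with N2, at least 1 pair was under the limit. Alternatives covered scaling, filters, pseudocounts, RPKM, the strains fitted, the replicate block and each library left out.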

Additional observations from a re-analysis of the deposited data

How the results depend on the processing

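Median-of-ratios scaling, other filters and pseudocounts, RPKM, fits of only the strains compared, a replicate block and leaving out each library were tried, with limma-voom on rebuilt reads added after seeing the data. The genes called lower in spo-11 were 5449 under median-of-ratios scaling (3010 otherwise), those lower in htp-3 4743 (2684) and those lower in spo-11 than in htp-3 3062 (1106); at a minimum of 5 TPM, 4731 were higher in spo-11 (7584) and 3042 higher in spo-11 than in htp-3 (5264). The count lower in dsb-2, 10 genes, was 4 with no filter, 5 with a pseudocount of 5, 19 with RPKM, 3 with only the strains compared and 17 with the replicate block, and the count higher, 26, was 15 with only the strains compared. Leaving out 1 library gave 2 to 14 lower in dsb-2, 1789 to 3297 lower in htp-3 and 3003 to 5284 higher in spo-11 than in htp-3. The members' median difference in dsb-2 (-1.44) was -3.02 with a pseudocount of 0.1, -0.52 with 5 and -1.87 to -1.16 leaving out 1 library. It was 0.65 (scaling) and 0.72 (pseudocount 5) in spo-11, and -1.36 and -0.37 (pseudocounts 0.1 and 5) in htp-3. The cause was not tested. The direction of daf-4, a gene of the lists, turned: in spo-11 it was -0.45 under median-of-ratios scaling (limma adjusted p = 0.0329) and 0.32 otherwise (adjusted p = 0.167). With the replicate block, which the numbers do not bear out against N2, dpy-5 also passed in dsb-2 and htp-3, col-41 in dsb-2, and dpy-4 and cyn-9 in htp-3. Between spo-11 and htp-3 the block ended the calls of bli-3 and tsp-15 and added nekl-2 and mab-10. Counts of 1 to 20 reads limit the low values.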
